A study of Mus musculus with 2 samples.

Results

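Apaf1 and the caspase genes were followed in CD5-positive gamma delta T cells of mouse spleen. They were taken as Apaf1 and each gene whose symbol is Casp followed by a number in the platform annotation, and 9 of 4331 named genes met this rule. The genes are Apaf1, Casp1, Casp2, Casp4, Casp6, Casp8, Casp9, Casp12 and Casp14, each measured by 1 probe. The groups were wildtype mice and mice with the LAT3YF allele of the adaptor LAT, and per the labels the cells of both were enriched with magnetic beads against CD5 and sorted on a FACSDiva. The labels give no age, sex, strain, number of animals or pooling for either group. Total RNA of both groups was hybridised to 2 arrays, with the dyes reversed from one to the other, so the arrays count as 1 replicate of the comparison, no test of the groups was possible, and each SD (n = 2 arrays) covers technical error only.

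Caspases are cysteine proteases that cut their targets after aspartate and are made as inactive precursors. In the mitochondrial pathway of apoptosis, cytochrome c released into the cytosol makes Apaf1 assemble into the apoptosome, which activates Casp9, and Casp9 then activates the executioner caspases. Casp8 starts the death receptor pathway, whereas Casp1 and Casp4 act in inflammation, where Casp1 matures the cytokines encoded by Il1b and Il18. In T cells the mitochondrial and death receptor pathways remove activated cells after a response, and LAT couples the T cell receptor to the signals that start one.

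Each value is a log10 ratio between the populations on 1 array. The labels call the arrays + polarity and - polarity, here the plus array and the minus array. Ratios of the minus array were multiplied by -1 so that a sign means the same population on both arrays. A positive value marks a transcript more abundant in 1 population and a negative value one more abundant in the other. The sample titles name wildtype before LAT3YF for the plus array and LAT3YF before wildtype for the minus array. Neither the dye of a channel nor which channel was the numerator is in the labels. The sign of LAT3YF is therefore unknown and the populations may be exchanged in what follows. The base of the logarithm is unknown too, and every fold assumes base 10. A gene was called when its mean reached 2-fold (a log10 ratio of 0.301) and its sign was the same on both arrays. This is a rule of size and not a test.

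Apaf1 and Casp1 were the 2 called members, both positive and both about 2.48-fold to 2.49-fold. Among all 4331 named genes 8.75% were called, 3.72% positive and 5.03% negative. The members called were 2 of 9 (22.2%), too few genes to set the family apart from that background. At 1.5-fold 4 members passed (17.9% of named genes) and at 3-fold none did (3.32%), while on a single array 2 passed on the plus array (10.4% of named genes) and 3 on the minus array (17.1%). If the deposited values were log2 or natural logs, no member would reach 2-fold. Casp4 lay just below the threshold on the same side, and the other members were smaller or differed between the arrays. The members' median log10 ratio was 0.0813, beside 0.0023 over all named genes, with 5 members above 0 and 4 below 0. That median is the mean of Casp14, whose arrays had opposite signs. Taken on each array, the members' median was -0.00029 on the plus array and 0.0288 on the minus array. Over all named genes these medians were 0 and 0.0015.

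The stretches of 250 bases before the start sites of Apaf1, Casp1 and Casp4, the members with the largest positive ratios, are given to set the regulatory regions of genes with like ratios side by side. They are RefSeq sequence of GRCm38.p6, 5′ to 3′ on the strand of the gene. The windows are chr10:91082744-91082993 (- strand) for Apaf1, chr9:5298267-5298516 (+ strand) for Casp1 and chr9:5308599-5308848 (+ strand) for Casp4. Capitals mark matches to the motifs searched, on both strands.
Apaf1: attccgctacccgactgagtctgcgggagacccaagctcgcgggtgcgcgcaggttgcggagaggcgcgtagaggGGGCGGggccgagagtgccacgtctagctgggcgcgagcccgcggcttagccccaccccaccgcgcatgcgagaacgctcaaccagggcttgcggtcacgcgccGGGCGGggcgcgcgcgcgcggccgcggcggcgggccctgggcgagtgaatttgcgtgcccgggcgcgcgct
Casp1: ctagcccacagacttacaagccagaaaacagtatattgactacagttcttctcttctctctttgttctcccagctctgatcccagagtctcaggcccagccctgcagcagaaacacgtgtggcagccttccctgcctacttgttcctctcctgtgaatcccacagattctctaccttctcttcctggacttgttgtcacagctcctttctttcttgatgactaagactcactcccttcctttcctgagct
Casp4: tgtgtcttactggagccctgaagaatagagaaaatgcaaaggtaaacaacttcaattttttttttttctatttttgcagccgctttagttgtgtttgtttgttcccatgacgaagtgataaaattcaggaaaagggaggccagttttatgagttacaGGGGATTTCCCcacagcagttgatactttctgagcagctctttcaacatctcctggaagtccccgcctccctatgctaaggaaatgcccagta
The window of Apaf1 held 42 CpG dinucleotides, against a median of 6 over 32851 windows of the same length. The Casp1 window held 1 and the Casp4 window 3. Members that were not called also lay above that median, with 25 for Casp9, 17 for Casp2, 11 for Casp6 and 8 for Casp14. Casp8 held 5 and Casp12 held 1. The motifs searched were the interferon-gamma activated site TTCNNNGAA, the interferon regulatory factor element GAAANNGAA and the NF-kB consensus. Also searched were 1 unit of the p53 consensus, the GC box GGGCGG, the CCAAT box CCAAT and the TATA box TATAAA. The full p53 consensus is a pair of such units and was not searched. Apaf1 held 2 GC boxes, a motif present in 32.7% of all windows. Among members that were not called, Casp9 held 4 GC boxes, and Casp2 and Casp6 held 1 each. Casp4 held the NF-kB consensus in 2 overlapping matches 83 to 93 bases before the start, and 3.9% of all windows held it. No motif of the search was found in the Casp1 window. The shares of all windows with the other motifs were 7.02% for the activated site and 7.13% for the interferon regulatory factor element. They were 7.13% for the p53 unit, 33.8% for the CCAAT box and 12.4% for the TATA box. A match describes letters and not a site of binding.

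Apaf1, the scaffold of the apoptosome, had a log10 ratio of 0.401 on the plus array and 0.390 on the minus array after turning. Both arrays lay above the threshold and close to each other. The mean was 0.395 ± 0.0083 (2.49-fold), which placed Apaf1 at rank 91 from the positive end of the 4331 genes. The gap between its arrays, 0.0117, was small beside the median gap of 0.0819 over all genes.

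Casp9, the initiator caspase that Apaf1 activates, was at 0.261 on the plus array and 0.0288 on the minus array. The arrays had the same sign but unlike sizes, 1.82-fold against 1.07-fold. Its mean of 0.145 was smaller than its SD of 0.164, and Casp9 was not called. The gap of 0.232 between the arrays was far wider than that of Apaf1.

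The other initiator caspases had ratios near 0. Casp8, which is activated at death receptors, was at -0.00029 on the plus array and -0.0742 on the minus array, with a mean of -0.0373 ± 0.052, smaller in size than its SD. Casp2, an initiator caspase linked to DNA damage and cell division, was at -0.0164 and -0.0253, with a mean of -0.0208 ± 0.0063 (1.05-fold). Neither gene was called, and the values of Casp2 were nearly alike on both arrays.

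Casp6 was the only executioner caspase among the members. It was at -0.136 on the plus array and -0.140 on the minus array, and the mean was -0.138 ± 0.0032 (1.37-fold). Both arrays put it on the side opposite to Apaf1 and Casp1, below the threshold. The gap between its arrays was among the lowest 3.39% of all genes.

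The inflammatory caspase genes Casp1, Casp4 and Casp12 are next to each other on chromosome 9, with no other gene of the RefSeq table starting between them. Casp1, which encodes the interleukin-1 converting enzyme, was at 0.418 on the plus array and 0.371 on the minus array, each past the threshold. Its mean was 0.395 ± 0.033 (2.48-fold), at rank 92 of the 4331 genes, next to Apaf1. Casp4, which encodes the mouse sensor of intracellular lipopolysaccharide also called caspase-11, was at 0.2998 on the plus array and 0.301 on the minus array. The gap of 0.0012 between its arrays was the smallest of the members. Its mean of 0.3004 ± 0.00085 corresponds to 1.997-fold and missed the threshold by 0.00063. With each array centred on its median, or with the arrays scaled to 1 spread, Casp4 passed and 3 members were called.

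Casp12, the third gene of this cluster, did not share the positive values. It was at -0.0125 on the plus array and -0.527 on the minus array, so it was near 0 on one and 3.36-fold on the other. The mean was -0.270 ± 0.36, smaller in size than its SD, and the gap between the arrays was at percentile 92.9 of all genes. On the minus array alone Casp12 would be called. Probe sequences were not used here, so signal shared between these related genes was not tested.

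Casp14, which acts in the cornification of skin, was at -0.132 on the plus array and 0.294 on the minus array. It was the only member with opposite signs on the arrays, and its mean of 0.0813 ± 0.30 gives no side.

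**Figure D1:**
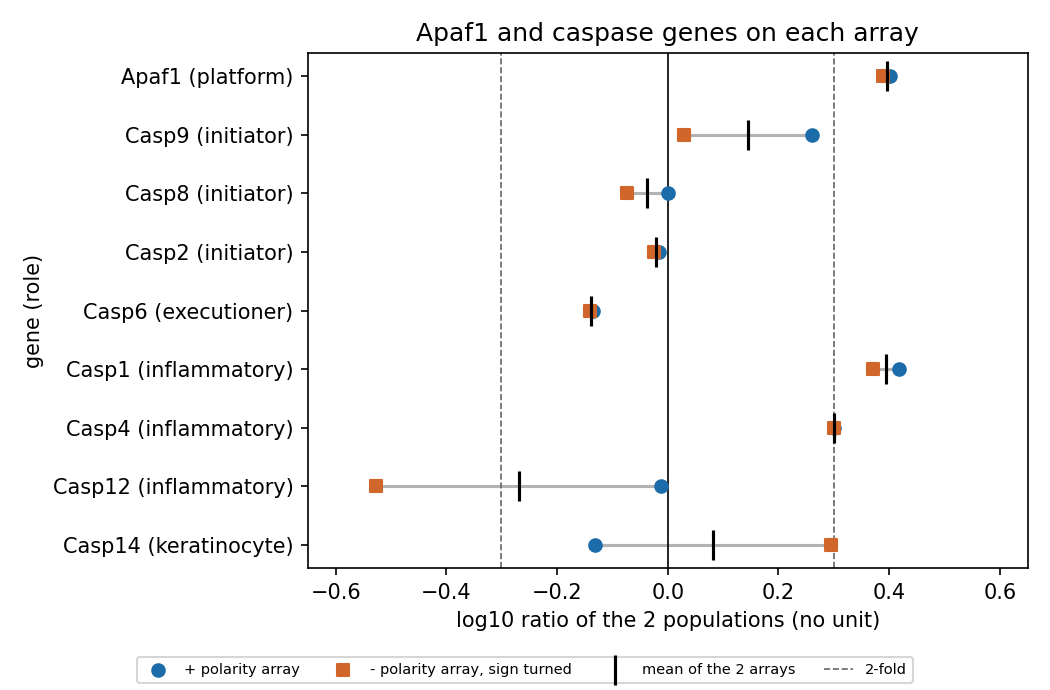
Log10 ratio (horizontal axis) of each of the 9 genes (vertical axis, with its role) on the plus array (circles) and the sign-turned minus array (squares), with the mean (black bar) and 2-fold marked by dashed lines. Apaf1, Casp1 and Casp4 have nearly equal values on both arrays, whereas Casp12, Casp14 and Casp9 are spread out.

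Apaf1, Casp1, Casp2, Casp4 and Casp6 had gaps of at most 0.0462, and Casp8 had 0.0739, all below the median gap over all genes. Casp9, Casp14 and Casp12 had gaps of 0.232, 0.426 and 0.514. Ordered by mean, Apaf1 and Casp1 differed from each other by less than their SDs, and Casp4 followed below both on each array. Casp9 and Casp14 came next, with SDs larger than the gap between them, and the SD of Casp9 was also larger than its distance to Casp4. Casp2 and Casp8 overlapped and Casp6 lay below both. The SD of Casp14 was also larger than its distance to Casp4, Casp2, Casp8 or Casp6. Casp12 had the lowest mean, with an SD larger than its distance to Casp6, Casp8, Casp2 or Casp14. Signal intensities were not analysed here, so whether the spread-out members were dim was not tested.

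**Figure D2:**
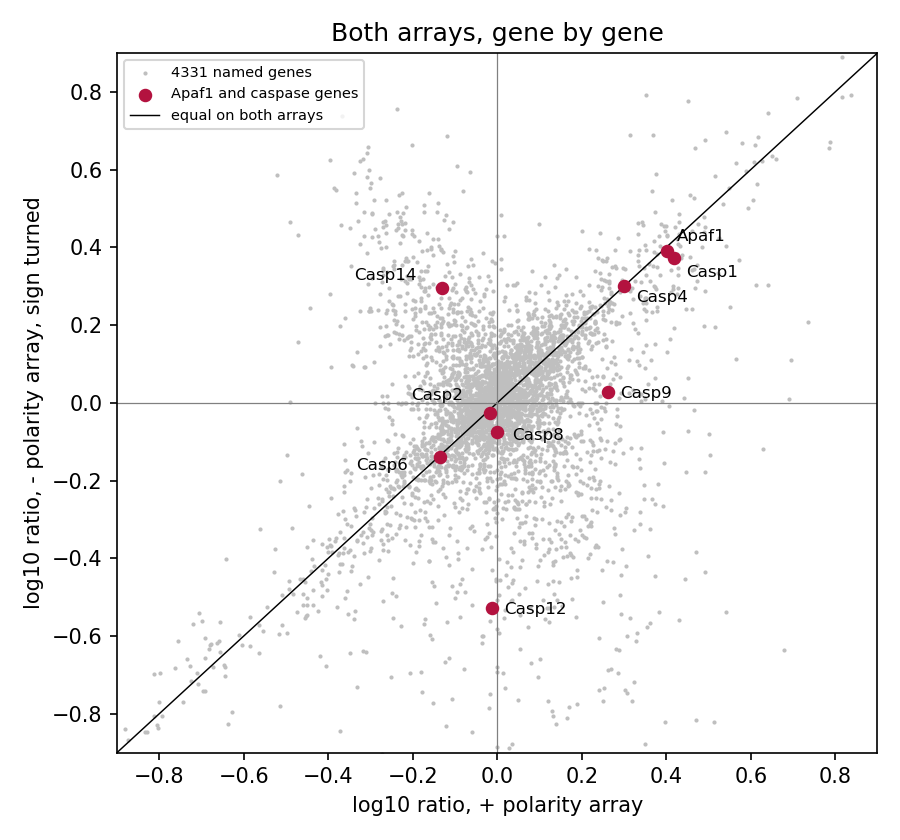
Log10 ratio of each gene on the plus array (horizontal axis) against the sign-turned minus array (vertical axis), with all named genes in grey and the 9 genes in red. Apaf1, Casp1, Casp4, Casp2 and Casp6 lie near the line of equal values and Casp12, Casp14 and Casp9 away from it, and 47 genes past 0.9 on either axis are outside the plot.

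The genes with the pattern most like Apaf1 were those at the smallest distance from it in the plane of the 2 arrays. They were Tnfsf9, a costimulatory ligand, at a distance of 0.0105, the chemokine gene Ccl5 at 0.0145, Birc5 at 0.0213 and Hyi, which encodes an isomerase, at 0.0230. Around Casp1 the order was Ccl5 at 0.0128, the calcium-binding protein gene S100a11 at 0.0130, the lipid phosphatase gene Plpp2 at 0.0185 and the centriole kinase gene Plk4 at 0.0214. Casp1 itself was the fifth nearest gene to Apaf1, at 0.0244. A likeness over 2 arrays describes position in this comparison only.

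Genes around the caspases in these pathways were taken from 9 lists with 102 genes, of which 69 were measured. A total of 6 were called positive and 3 negative, which is 13% of those measured beside 8.75% of all named genes.

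No measured partner of Apaf1 in the mitochondrial pathway was called, beside 8.75% of all named genes. These lists are too short for 0 calls to set them apart from that share. Of 8 measured genes for cytochrome c, the proteins released with it and the channel of the outer mitochondrial membrane, 0 were called, and the median was 0.0372. The member of largest size was Diablo, whose protein relieves the block on caspases, at -0.133 ± 0.020, followed by the chaperone gene Hspd1 at 0.0907 ± 0.0077. Cycs, which encodes the cytochrome c that Apaf1 binds, was at 0.0289 ± 0.014. None of the 5 measured pro-survival and 8 measured pro-apoptotic BCL2 family genes was called either, with medians of -0.0167 and 0.0272. A further 4 and 3 genes of these lists, Bax among them, had no value here. Among the first, Bcl2l1, which encodes BCL-XL, was largest at 0.148 ± 0.0049 and Bcl2l10 followed at 0.0666 ± 0.077. Among the second, Bok, a relative of Bax, was at -0.230 ± 0.32 with almost no ratio on the plus array, and Pmaip1, which encodes the sensitiser NOXA, was at 0.220 ± 0.016.

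In the death receptor pathway, 2 of 14 measured genes were called (14.3%, beside 8.75% of all named genes), both ligand genes. The list is too short to set it apart from that share. Tnfsf10, which encodes TRAIL, was called at 0.357 ± 0.039 (2.28-fold) and Fasl, the Fas ligand gene, at 0.320 ± 0.0093 (2.09-fold). Both lay on the side of Apaf1 and Casp1, and the other 12 genes were not called, among them the ligand genes Tnf and Lta and the receptor gene Fas. In 9 of the 14 the arrays had opposite signs, as they had in 1728 of the 4331 named genes. The median of the list was 0.0072. Casp8, the caspase this pathway activates, was near 0 as given above.

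Among 8 measured caspase inhibitors and relatives, 1 was called (12.5%, beside 8.75% of all named genes), Birc5 at 0.394 ± 0.013 (2.48-fold). Birc5 encodes survivin, which is also a subunit of the mitotic chromosomal passenger complex. Serpinb9, an inhibitor of granzyme B, was at 0.227 ± 0.30, with nearly all of its ratio on the plus array (0.442 against 0.012). The median of the list was 0.0558.

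Substrates of caspase-1 and the genes that sense danger upstream of it were thinly covered, with 4 of 15 measured. Of these 4, 1 was called (25%, beside 8.75% of all named genes). Il18, whose product Casp1 matures, was called negative at -0.721 ± 0.0059 (5.26-fold), on the side opposite to Casp1. Its arrays, at -0.726 and -0.717, were nearly equal. Il1b, the other cytokine substrate, was at -0.161 ± 0.11 and was not called. The median over this list was -0.127. Of 10 measured substrates of executioner caspases, 2 were called, both positive (20%, beside 8.75% of all named genes). They were the nuclear lamina gene Lmnb1 at 0.354 ± 0.088 (2.26-fold) and the intermediate filament gene Vim at 0.415 ± 0.056 (2.60-fold). These lists are too short to be set apart from that share. Lmnb1 was at 0.292 on the minus array, below the threshold there. Lmnb1 and Vim are structural genes, and the median of the list of executioner substrates was -0.0235.

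In the lists of the p53 and E2F pathways and of the interferon pathway, 1 gene was called positive and 2 negative. These calls are 20% and 28.6% of the measured genes of each list, beside 8.75% of all named genes. Both lists are too short to be set apart from that share. Of 5 measured genes of the p53 and E2F pathways, both known to act on Apaf1 transcription, Cdkn1a was called at 0.728 ± 0.082 (5.35-fold). The measured transcription factor genes of that list were not called, while Trp53, the p53 gene, and E2f2 had no value here. Cdkn1a encodes the cell cycle inhibitor p21 and is a target of p53, not a regulator of Apaf1. The next in size, Trp73, a relative of p53, was at -0.112 ± 0.041. The median of these 5 was 0.0402. Of 7 measured genes of the interferon pathway, which acts on Casp1 transcription, Irf8 was called negative at -0.457 ± 0.0044 (2.87-fold) and the receptor gene Ifngr1 at -0.380 ± 0.020 (2.40-fold), against a list median of -0.0394. Irf8 is also a gene of myeloid and B cells.

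**Figure D3:**
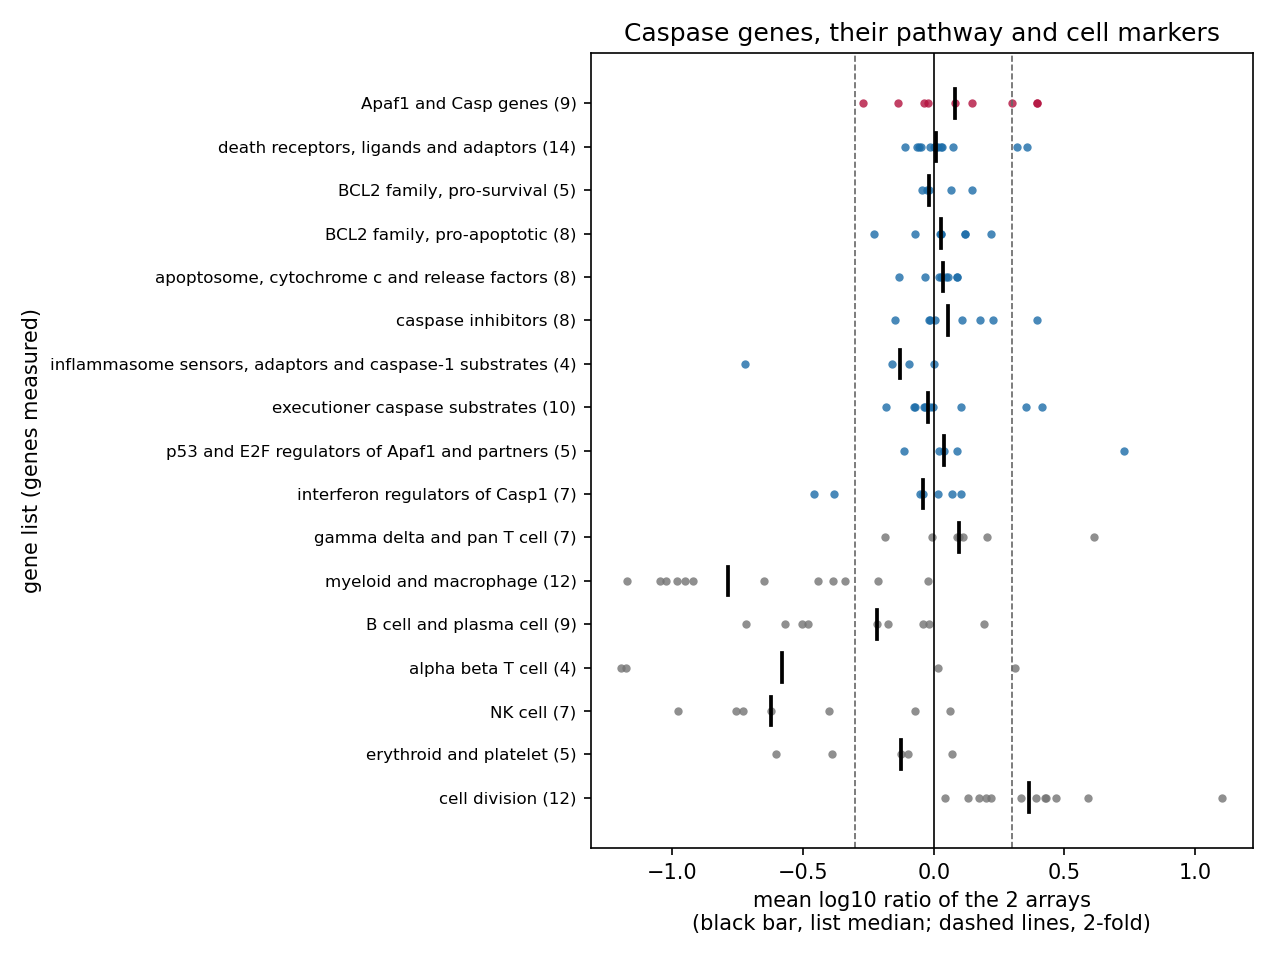
Mean log10 ratio of the 2 arrays (horizontal axis) for each gene of the 9 members, of the pathway lists (blue) and of the cell markers (grey), 1 row per list with the number of genes measured, and the list median as a black bar. Pathway medians lie between -0.127 and 0.0558, while the myeloid markers lie low and the cell division genes high.

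Genes listed as markers of other cell types differed between the populations. Whether the gamma delta T cells themselves expressed these genes was not tested. Over all named genes 3.72% were called positive and 5.03% negative. Of 12 measured myeloid and macrophage markers, 10 were called negative and 0 positive, with means from -1.17 (Slc40a1) to -0.0221 (Itgam) and a median of -0.786. They lay on the side of Il18 and opposite to Casp1, which myeloid cells also express. Of 9 measured B cell markers 4 were called negative, from Ighm at -0.719 to Cd22 at 0.193, and of 7 measured NK cell markers 5 were, from Klrd1 at -0.979 to Cd244a at 0.0607. Of 5 erythroid and platelet markers 2 were called negative, from Epor at -0.604 to Gata1 at 0.0685. Of 4 alpha beta T cell markers 2 were called negative and 1 positive, from Cd8a at -1.20 to Zbtb7b at 0.311. The arrays of Cd8a differed widely, at -0.654 on the plus array and -1.738 on the minus array. Cell division genes lay on the side of Apaf1, Casp1 and Birc5, with 7 of 12 called positive, from Pcna at 0.0442 to Rrm2 at 1.105, and a median of 0.365. The part of other cell types and of division in the ratios of the members was not tested. Fewer cells of a type cannot be told apart from less RNA per cell, nor from a difference within the gamma delta T cells.

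Markers of T cells themselves had a median of 0.0954 over 7 measured genes, from Cd247 at -0.185 to Cd5, the gene of the sorting marker, at 0.614. Trdc, Trgc1, Trgc2 and Trgc4, which encode the receptor constant regions, are not analysed here. Ratios carry no level, so the labelled cell type could not be checked against its markers within a population.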

How the data were processed

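For each probe the authors deposited a log ratio of both channels on each array, read here as log10 values, although the sources used here give neither the base, the numerator and the dyes nor the scanner, the background correction and the normalization. Column medians were -0.00284 (plus array) and 0.00101 (minus array). Of 8014 probes, 4654 were annotated with a single gene and were used, while 73 named several genes and 3287 none. All 9 members matched the RefSeq gene table by gene identifier. The minus array was multiplied by -1, probes of a gene were averaged, and both arrays were averaged (pandas 2.3.3, numpy 2.4.6). The calling rule was tested on simulated data. The simulation gave all genes the same spread, narrower than the gaps between these arrays imply, so it does not show how the rule performs on them. The number of arrays limits the precision.

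The members and lists were chosen with earlier results of these data known. Genes named beside the members were the called genes of each list or, under 2 calls, also its 2 largest by size, the 4 nearest to Apaf1 and to Casp1, and the extremes of each marker list. Cycs, Tnf, Lta and Fas were named outside this rule, after their values were seen. Alternatives were thresholds of 1.5-fold and 3-fold, single arrays, each array past the threshold, centred or scaled arrays, other log bases, 1 probe per gene and no rule on sign.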

Additional observations from a re-analysis of the deposited data

How the results depend on the processing

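The 2 members called became 4 at 1.5-fold (with Casp4 and Casp12 added), where 774 of all named genes were called (17.9%), and 0 at 3-fold, where 144 were. With 1 array left out, 2 to 3 members and 452 to 742 named genes were called, the higher counts coming from the minus array, which added Casp12. With the values read as log2 or natural log, 0 members were called, and 17 or 62 named genes. Read as log2, the log10 ratio would be 0.119 for Apaf1 (1.32-fold), 0.119 for Casp1, 0.0904 for Casp4, -0.0063 for Casp2 and -0.0415 for Casp6. Read as natural log, these would be 0.172, 0.171, 0.130, -0.0090 and -0.0599. Centring moved Casp4 to 0.3023 and scaling to 0.3022, both past the threshold. Apaf1 and Casp1 were called in each setting tried except 3-fold and the other log bases. Some settings could not have removed them. The 1.5-fold threshold and no rule on sign only loosened the rule, and 1 probe per gene changes nothing where each member has 1 probe. Both populations share each array, so each ratio already pairs them, and with 1 replicate no test over pairs was possible. Depth is unknown, since ratios carry no intensity.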
